A study of Mus musculus with 8 samples.

Results

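The m6A readers analysed here are 8 genes taken by name from a table of 54532 genes: Ythdf1, Ythdf2, Ythdf3, Ythdc1, Ythdc2, Igf2bp1, Igf2bp2 and Igf2bp3. Their mRNA was compared between 4 METTL3-HKD mice and 4 METTL3-Flox mice, whose livers were taken 6 h into reperfusion that followed 1 h of ischemia. METTL3-HKD mice carry METTL3 flox/- together with Alb-iCre, a recombinase driven by the albumin promoter and therefore active in hepatocytes, and METTL3-Flox mice are METTL3 flox/flox animals of the same litters, with no Cre named. Only exon 4 of Mettl3 is flanked by loxP sites, the METTL3-HKD mice are described as heterozygous with reduced METTL3 in the liver, and sham-operated livers were not part of these samples. The ischemia was partial, with the left and middle branches of the portal vein clamped. Unfractionated liver tissue that had been ischemic was sequenced, so that hepatocytes, resident cells and infiltrating blood cells can all contribute RNA. Fewer cells of a type and less RNA per cell cannot be told apart. Of the 8 readers, 6 were measured well enough to test and none passed the test, Igf2bp2 and Ythdf2 came nearest, Igf2bp3 was close to the limit of detection and Igf2bp1 had no read in any liver.

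N6-methyladenosine (m6A) is a methyl mark placed on adenosines of mRNA by a writer complex whose catalytic subunit is METTL3, removed by the demethylases FTO and ALKBH5, and bound by reader proteins. The YTH domain readers hold the methylated base in an aromatic pocket: the cytoplasmic YTHDF proteins are known for mRNA decay through the CCR4-NOT deadenylase and for effects on translation, YTHDC1 works in the nucleus in splicing and export, and YTHDC2 is an RNA helicase with its best known role in germ cells. The IGF2BP proteins bind RNA through KH domains, stabilise target mRNAs and are known as oncofetal, with high levels in the embryo and in liver tumours and low levels in the adult liver.

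The readers form families of similar genes, so the sequences bear on whether their reads could be told apart. Of all stretches of 90 coding bases compared without gaps, those printed here have the most bases in common among the 3 YTHDF genes. They run from coding base 1129 to 1218 of Ythdf1-201 (GRCm38 chr2:180911122-180911211, minus strand), from 1192 to 1281 of Ythdf2-203 (chr4:132204567-132204656, minus strand) and from 1210 to 1299 of Ythdf3-201 (chr3:16204900-16204989, plus strand), each within exon 4, in GENCODE M21. Bases that are the same in all 3 genes are in lower case, and capitals mark positions at which at least 1 gene differs.
Ythdf1: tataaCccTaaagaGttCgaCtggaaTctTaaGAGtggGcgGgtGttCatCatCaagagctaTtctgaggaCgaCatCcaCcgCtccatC
Ythdf2: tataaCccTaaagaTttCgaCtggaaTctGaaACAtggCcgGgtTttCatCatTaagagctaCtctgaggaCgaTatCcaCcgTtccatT
Ythdf3: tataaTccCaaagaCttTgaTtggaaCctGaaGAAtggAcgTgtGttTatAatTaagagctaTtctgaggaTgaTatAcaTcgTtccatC
Even in this stretch 23 of the 90 bases differed in at least 1 gene, and the longest run shared by all 3 was 8 bases. The stretch with the most shared bases among the IGF2BP genes spans an exon junction in each of them: coding bases 1357 to 1446 of Igf2bp1-201 (exons 12 and 13, chr11:95966732-95967587, minus strand), 1402 to 1491 of Igf2bp2-201 (exons 13 and 14, chr16:22063663-22065131, minus strand) and 1357 to 1446 of Igf2bp3-201 (exons 12 and 13, chr6:49088511-49091014, minus strand).
Igf2bp1: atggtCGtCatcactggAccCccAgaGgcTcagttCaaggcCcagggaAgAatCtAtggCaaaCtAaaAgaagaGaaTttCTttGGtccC
Igf2bp2: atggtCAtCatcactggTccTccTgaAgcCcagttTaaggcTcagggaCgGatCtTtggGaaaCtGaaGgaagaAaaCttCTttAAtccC
Igf2bp3: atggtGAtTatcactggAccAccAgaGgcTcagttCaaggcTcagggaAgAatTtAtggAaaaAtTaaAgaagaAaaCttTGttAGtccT
Here 25 of the 90 bases differed in at least 1 gene, and the longest shared run was again 8 bases. Over all annotated transcripts, no reader shared a word of 50 bases with another reader. Ythdf2 shared 7.49% of its 50-base words with the processed pseudogenes Gm6823, listed at 0 FPKM in every liver, and Gm8401, which had at most 0.121 FPKM. Ythdc1 shared 5.87% of its words with other genes. Among these were the noncoding gene Gm43055 (586 of 813 shared words), listed at 0 FPKM in every liver, and Ndrg3 (118 words, mean 1.67 FPKM). Some shared words lay in abundant genes, such as Cyp2e1 (12 words, mean 1706 FPKM). Ythdc2 shared 0.804% of its words with other genes, including 7 with Ldha (mean 535 FPKM). The part of such words in the Ythdc1 and Ythdc2 values was not tested. Igf2bp3 shared 1529 bases of exon, or 18.7% of its length, with Malsu1 on the opposite strand, which had a mean of 6.02 FPKM, and because the strand setting of the counting is not given in the sources used here, part of the few Igf2bp3 reads could belong to Malsu1.

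Values are given in FPKM, which sets fragments against gene length and library size, as deposited, and values of single livers are listed in the order of the mouse numbers 1 to 4. The reads rebuilt from them numbered 15861245 to 18434488 per liver. The 16645 genes averaging 0.1 FPKM or more were compared with limma on log2(FPKM + 0.1), so fold changes of low genes are understated, and an exact permutation test, two-sided, was added for single values, in which 4 livers against 4 cannot give a p below 0.0286. Mettl3, the targeted gene, lay at 1.17 to 1.56 FPKM in METTL3-HKD and 1.16 to 1.84 FPKM in METTL3-Flox livers, a log2 fold change of -0.16 that was not called (adjusted p = 0.556 from limma). Only 1 exon is deleted and 18.4% of the gene's length overlaps Tox4 on the other strand, so the whole-gene value does not check the genotype labels. The ratio of the library size used for FPKM to the reads on genes separated the genotypes, with ranges that almost touched. It was 1.0082 to 1.17 in METTL3-HKD and 0.840 to 1.0081 in METTL3-Flox livers, so the scaling was not independent of genotype. METTL3-Flox liver 1 had the lowest ratio, 0.840 against 0.936 to 1.17 in the other 7 livers. Its 10 most abundant genes took 22.2% of the reads against 17.1% to 19.7% elsewhere. Cell type markers also moved with genotype: all 7 neutrophil markers passed the test as higher in METTL3-HKD livers (summed 330 to 1614 FPKM against 12.8 to 44.2), as did 4 of 5 erythroid markers (185 to 597 against 48.2 to 107). These 4 are globin genes, and the fifth, Alas2, an enzyme of heme synthesis, had a log2 fold change of -0.98 with an unadjusted p of 0.0263 (adjusted p = 0.103 from limma), in the other direction. Of the Kupffer cell markers, 4 of 5 passed the test as lower (59.1 to 132 against 134 to 336). Over all tested genes, 9.05% passed as higher and 6.63% as lower. The 9 hepatocyte markers were abundant in every liver, with summed values of 22623 to 33001 FPKM in METTL3-HKD and 29332 to 33383 FPKM in METTL3-Flox livers. All 9 had negative log2 fold changes (median -0.36), and 1, Hnf4a, passed the test as lower. With the libraries scaled to their reads on genes, 7 of the 9 stayed negative, and no hepatocyte or Kupffer cell marker passed the adjusted limma test as lower (0 and 4 at an unadjusted p under 0.05; voom on the rebuilt reads called 1 and 4).

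Per length, the cytoplasmic YTHDF genes accounted for most reader mRNA. In METTL3-Flox livers the means ran in the order Ythdf1 (14.5 ± 1.65 FPKM, SD, n = 4), Ythdf3 (13.4 ± 1.03), Ythdf2 (5.11 ± 0.715), Ythdc1 (1.77 ± 0.116), Ythdc2 (1.53 ± 0.273), Igf2bp2 (0.365 ± 0.0855), Igf2bp3 (0.105 ± 0.0544) and Igf2bp1 (0). The ranges of Ythdf1 and Ythdf3 overlapped, as did those of Ythdc1 and Ythdc2, and the other neighbours were separate. In METTL3-HKD livers Ythdf3 (14.8 ± 1.07 FPKM) came before Ythdf1 (13.9 ± 0.440), with overlapping ranges, and the ranges of Ythdc2 and Igf2bp2 also met. The sum of the 8 readers was 39.9 ± 2.23 FPKM in METTL3-HKD and 36.8 ± 1.23 FPKM in METTL3-Flox livers, of which Ythdf1, Ythdf2 and Ythdf3 together gave 35.1 ± 1.83 and 33.1 ± 1.34 FPKM.

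**Figure D1:**
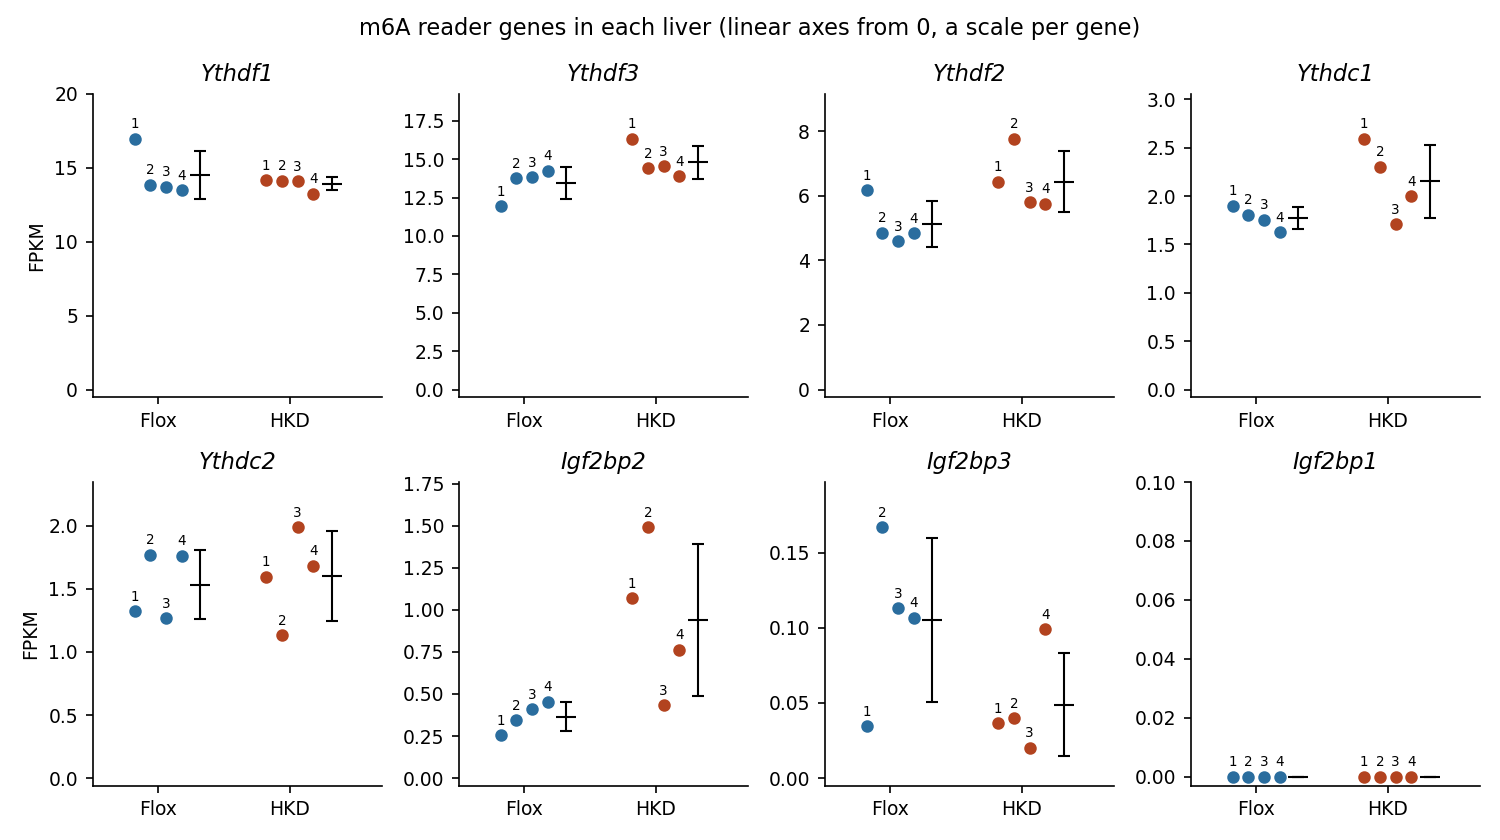
FPKM of the 8 readers in each liver, with the number of the mouse above each point and the mean ± SD (n = 4) as a bar beside each group. Each gene has its own linear axis from 0; the groups overlap for each of the 7 genes with reads, and the points of Igf2bp1 lie at 0.

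The place of Ythdc1 in this order depended on the length behind FPKM. The table counts 13651 bases for Ythdc1, the union of the exons of 9 transcripts, of which 4 retain introns, while its longest coding transcript has 3269 bases, so the listed length is 4.18 times that of the transcript. For Igf2bp2 and Igf2bp3 the listed lengths were 1.90 and 1.88 times those of their longest coding transcripts, and for the 3 YTHDF genes 1.04 to 1.11 times. When the reads were divided by the longest coding transcript instead, an alternative chosen after seeing the data, Ythdc1 came before Ythdf2 in both groups, with 7.40 ± 0.484 against 5.66 ± 0.792 FPKM in METTL3-Flox and 8.98 ± 1.59 against 7.13 ± 1.04 FPKM in METTL3-HKD livers. The ranges of these 2 genes overlapped in METTL3-Flox livers (6.78 to 7.94 for Ythdc1, 5.08 to 6.83 for Ythdf2) and in METTL3-HKD livers. The comparisons between genotypes below used the listed lengths and were not repeated with the other ones.

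**Figure D2:**
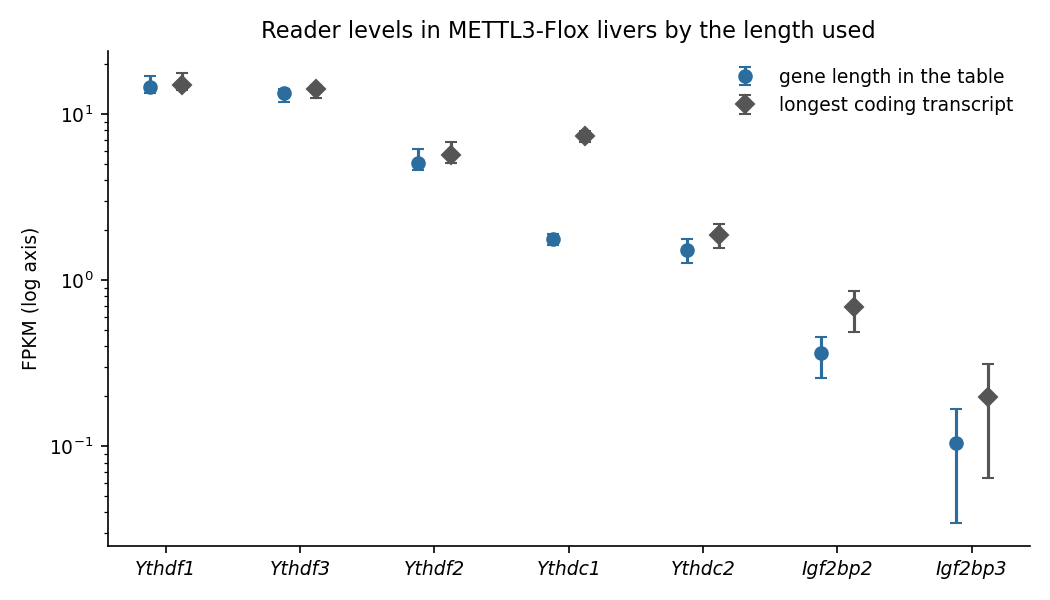
Mean FPKM of 7 readers in the 4 METTL3-Flox livers on a log axis, with bars from the lowest to the highest liver, by the gene length in the table (circles) and by the longest coding transcript (diamonds). Ythdc1 moves from 1.77 to 7.40 FPKM and passes Ythdf2; Igf2bp1, at 0, is left out.

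Between the genotypes, none of the 6 tested readers was called at an adjusted p under 0.05, where 15.7% of all tested genes were called (9.05% higher and 6.63% lower in METTL3-HKD mice), and voom on the rebuilt reads called none of them either. At an unadjusted p under 0.05, 2 of the 6, Ythdf2 and Igf2bp2, were higher, beside 16.7% of all tested genes. No tested reader had groups that did not overlap, beside 22.6% of all tested genes. The median log2 fold change of the 6 was 0.19, and that of all tested genes was -0.00.

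Ythdf2, the family member best known for bringing methylated mRNA to the CCR4-NOT deadenylase, lies on chromosome 4 (GRCm38, 132184912 to 132212303, minus strand). It measured 6.43, 7.76, 5.80 and 5.75 FPKM in the METTL3-HKD livers and 6.17, 4.86, 4.59 and 4.84 FPKM in the METTL3-Flox livers. METTL3-Flox liver 1 reached into the METTL3-HKD range, and the other 3 METTL3-Flox livers lay below every METTL3-HKD liver. The log2 fold change was 0.32 (SE 0.134, 95% interval 0.02 to 0.63, limma p = 0.0379, adjusted p = 0.131), and the exact permutation test gave p = 0.0857. Without METTL3-Flox liver 1 the log2 fold change was 0.42 (adjusted p = 0.0568 from limma) and the groups no longer overlapped (4.59 to 4.86 against 5.75 to 7.76 FPKM), as held for 16.4% of all tested genes. Leaving out any other single liver gave an adjusted p of 0.123 to 0.274 (limma). With the libraries scaled to their reads on genes, Ythdf2 was called (log2 fold change 0.54, adjusted p = 0.0444 from limma), but this scaling raised the median of all genes from -0.00 to 0.20.

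Ythdf1, a YTHDF protein described as promoting translation of methylated mRNA together with eIF3, lies on chromosome 2 (180904377 to 180920949, minus strand). It measured 14.2, 14.1, 14.1 and 13.2 FPKM in the METTL3-HKD livers and 17.0, 13.8, 13.7 and 13.5 FPKM in the METTL3-Flox livers. Apart from METTL3-Flox liver 1, all livers lay within 1 FPKM of each other. The log2 fold change was -0.05 (SE 0.0941, 95% interval -0.27 to 0.16, adjusted p = 0.732 from limma), an interval that leaves room for changes of 0.831-fold to 1.12-fold. Its sign was opposite without METTL3-Flox liver 1 (0.023) and after scaling to reads on genes (0.16, below the shift of the median of all genes).

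Ythdf3, described as acting with the other two YTHDF proteins in translation and decay, lies on chromosome 3 (16183212 to 16217037, plus strand). It measured 16.3, 14.4, 14.5 and 13.9 FPKM in the METTL3-HKD livers and 11.9, 13.8, 13.8 and 14.2 FPKM in the METTL3-Flox livers. METTL3-HKD livers 1 to 3 lay above every METTL3-Flox liver, and METTL3-HKD liver 4 lay below METTL3-Flox liver 4. The log2 fold change was 0.14 (SE 0.0914, 95% interval -0.07 to 0.34, adjusted p = 0.337 from limma), with p = 0.0571 in the exact permutation test.

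A plain ratio of 2 genes in the same liver does not depend on how libraries were scaled. Ratios are given below in FPKM as deposited, and their differences between genotypes and tests are on log2 of the ratio of (FPKM + 0.1). Of the 4 pairs of paralogs compared, Ythdf2 over Ythdf1 had groups that did not overlap. The ratio was 0.454, 0.550, 0.412 and 0.435 in METTL3-HKD livers 1 to 4 and 0.364, 0.351, 0.335 and 0.359 in METTL3-Flox livers 1 to 4. Every METTL3-HKD liver was above every METTL3-Flox liver, including METTL3-Flox liver 1, in which both genes were high. The mean log2 ratio differed by 0.38 (1.30-fold), with p = 0.0286 in the exact permutation test, the smallest that 4 against 4 can give, and 0.114 after Benjamini-Hochberg adjustment over the 4 pairs. Among all tested genes set over Ythdf1 in the same way, 14.1% also lay higher in every METTL3-HKD liver, and 19.3% had groups that did not overlap in either direction. Accordingly, the share of Ythdf1 in the summed YTHDF FPKM was 38.3% to 40.9% in METTL3-HKD and 41.4% to 48.4% in METTL3-Flox livers, while the share of Ythdf2 was 16.9% to 21.4% and 14.3% to 17.6%.

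The other pairs overlapped. Ythdf3 over Ythdf1 was 1.02 to 1.15 in METTL3-HKD and 0.703 to 1.06 in METTL3-Flox livers, where the low end was METTL3-Flox liver 1 and the other 3 lay at 0.995 to 1.06 (log2 difference 0.19, exact permutation p = 0.171). Ythdf2 over Ythdf3 was 0.393 to 0.539 and 0.332 to 0.517 (log2 difference 0.19, exact permutation p = 0.371). Ythdc1 over Ythdc2 was 0.860 to 2.03 and 0.921 to 1.44 (log2 difference 0.20, exact permutation p = 0.543). For the IGF2BP genes no ratio was formed, since only Igf2bp2 reached a mean of 0.1 FPKM.

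**Figure D3:**
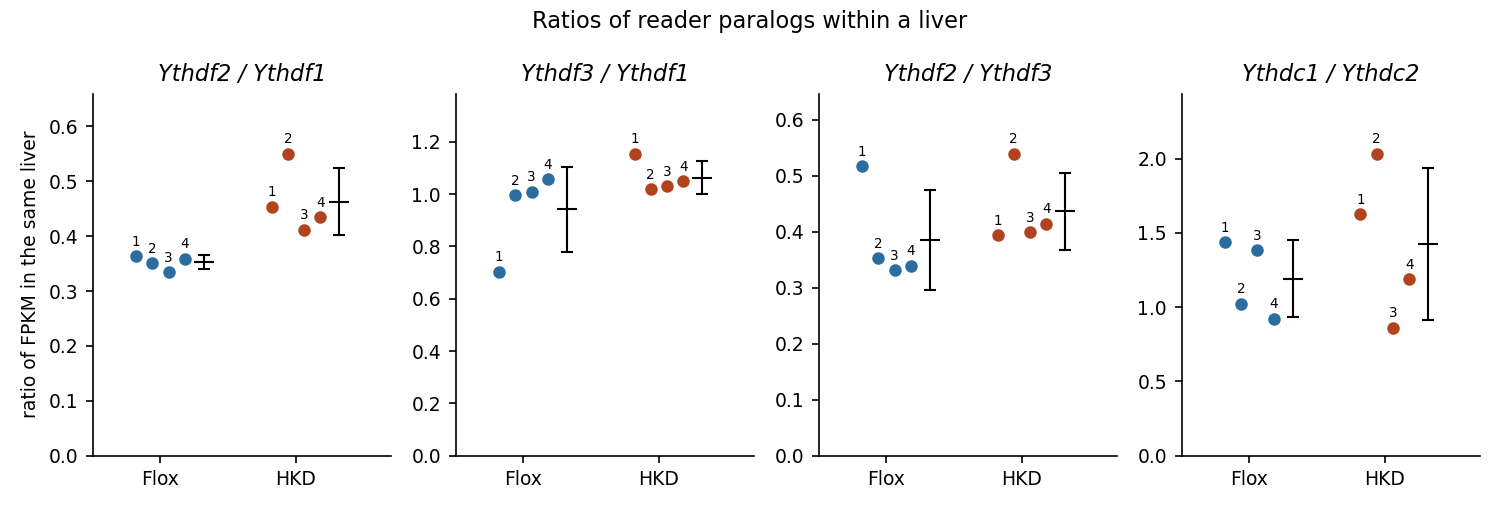
Ratio of FPKM of 4 pairs of reader paralogs within each liver, on linear axes from 0, with the number of the mouse above each point and the mean ± SD (n = 4) beside each group. Ythdf2 / Ythdf1 lies at 0.335 to 0.364 in METTL3-Flox and 0.412 to 0.550 in METTL3-HKD livers, and the other 3 pairs overlap.

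Ythdc1, the nuclear reader, lies on chromosome 5 (86804221 to 86836659, plus strand). It measured 2.59, 2.30, 1.71 and 1.998 FPKM in the METTL3-HKD livers and 1.90, 1.81, 1.75 and 1.62 FPKM in the METTL3-Flox livers. METTL3-HKD livers 1, 2 and 4 lay above every METTL3-Flox liver, and METTL3-HKD liver 3 lay within their range. The log2 fold change was 0.25 (SE 0.143, 95% interval -0.07 to 0.57, adjusted p = 0.255 from limma), with an exact permutation p of 0.143. In METTL3-HKD livers its values varied more (coefficient of variation 17.7%) than in METTL3-Flox livers (6.54%), where counting error alone gives about 4.64% per liver at its depth of 357 to 712 reads. Ythdc2, the helicase, is on chromosome 18 and had 1.60, 1.13, 1.99 and 1.68 FPKM in METTL3-HKD and 1.32, 1.77, 1.27 and 1.76 FPKM in METTL3-Flox livers. The groups overlapped almost wholly, with a log2 fold change of 0.05 (SE 0.192, 95% interval -0.38 to 0.49, adjusted p = 0.887 from limma), and the sign turned without METTL3-Flox liver 1 (-0.01) or 3 (-0.03) or METTL3-HKD liver 3 (-0.06).

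Igf2bp2, the IGF2BP member that adult tissues retain, had the largest fold change among the 6 tested readers. It lies on chromosome 16 (22059009 to 22163299, minus strand) and measured 1.07, 1.49, 0.434 and 0.763 FPKM in the METTL3-HKD livers and 0.257, 0.343, 0.409 and 0.453 FPKM in the METTL3-Flox livers. METTL3-HKD livers 1, 2 and 4 lay above every METTL3-Flox liver, and METTL3-HKD liver 3 lay between METTL3-Flox livers 3 and 4. Between 58 and 204 reads lie behind each METTL3-HKD value and between 27 and 54 behind each METTL3-Flox value. The mean was 0.939 ± 0.450 against 0.365 ± 0.0855 FPKM, a log2 fold change of 1.07 (SE 0.329, 95% interval 0.32 to 1.81, limma p = 0.0101) that did not pass the adjusted threshold (adjusted p = 0.0579), and the exact permutation test gave p = 0.0571. Without METTL3-HKD liver 3 the gene was called (log2 fold change 1.35, adjusted p = 0.0157 from limma). Leaving out any other single liver gave an adjusted p of 0.0916 to 0.150 (limma), and having no minimum on FPKM gave 0.104. With a pseudocount of 1 FPKM the log2 fold change was 0.48 (adjusted p = 0.0722 from limma). In METTL3-HKD livers 1 to 4 the summed neutrophil markers were 1614, 379, 330 and 544 FPKM and the summed hepatocyte markers 22623, 24544, 31169 and 33001 FPKM. METTL3-HKD liver 3, lowest in Igf2bp2, was also lowest in neutrophil markers, whereas METTL3-HKD liver 2, highest in Igf2bp2, was not the highest in them, and their part in the Igf2bp2 values was not tested.

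Igf2bp3 lies on chromosome 6 (49085223 to 49214957, minus strand) and was below the minimum for testing, with a mean of 0.0771 FPKM. It measured 0.0366, 0.0398, 0.0204 and 0.0989 FPKM in the METTL3-HKD livers, from 3 to 15 reads each, and 0.0345, 0.167, 0.113 and 0.107 FPKM in the METTL3-Flox livers, from 4 to 22 reads each. METTL3-Flox livers 2 to 4 lay above every METTL3-HKD liver, and METTL3-Flox liver 1 among the low ones (exact permutation p = 0.114). The direction was thus opposite to that of Igf2bp2, on 30 reads in all METTL3-HKD livers and 54 in all METTL3-Flox livers. Igf2bp1 (chromosome 11, 95957163 to 96005940, minus strand) had 0 reads in all 8 livers, which allows a level of up to 0.0154 to 0.0218 FPKM per liver (3 reads, counting error only).

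**Figure D4:**
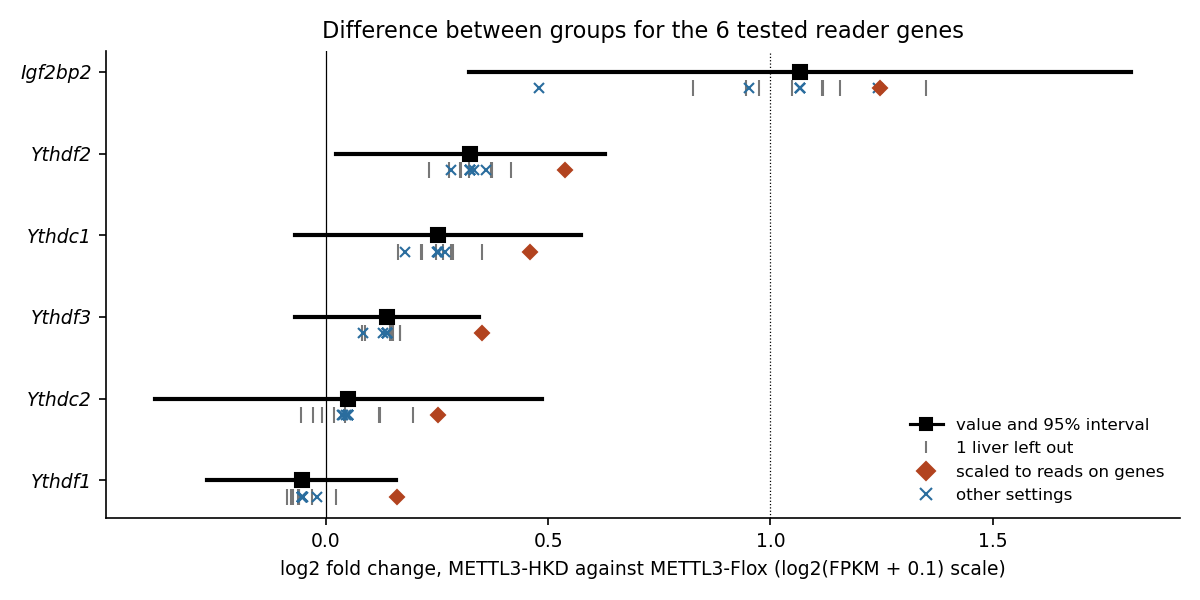
Log2 fold change of the 6 tested readers, METTL3-HKD against METTL3-Flox, on the log2(FPKM + 0.1) scale, with 95% intervals (black), and under each the values from 16 other settings (15 for Igf2bp2). The intervals of Igf2bp2 and Ythdf2 lie above 0 and those of the other 4 include 0; the dotted line marks a log2 fold change of 1.

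The other genes of the pathway were read from lists of writers, erasers, other proposed m6A-binding proteins and partners of the readers. Of 80 such genes 74 were tested, 8 passed as higher in METTL3-HKD mice (10.8%, against 9.05% of all tested genes) and 0 as lower by limma (against 6.63%; 2 at an unadjusted p under 0.05, and 0 by voom on the rebuilt reads), with a median log2 fold change of 0.14. Scaling to the reads on genes brought the number higher to 19, and leaving out a single liver gave 2 to 10, with 2 without METTL3-Flox liver 2, 2 without liver 3 and 4 without liver 4, and 3 without METTL3-HKD liver 1. Of the 13 writers 1 rose, the U6 and MAT2A methyltransferase Mettl16 (log2 fold change 0.49, adjusted p = 0.0260 from limma), and neither eraser passed the test, with 1, Alkbh5, higher at an unadjusted p under 0.05. None of the 10 other m6A-binding proteins and none of the 11 genes of CCR4-NOT and Upf1, the decay partners of YTHDF2, passed the adjusted test, with 2 higher and 1 lower in each list at an unadjusted p under 0.05. Of the 10 tested genes of Rida and RNase P/MRP, through which YTHDF2 is known to bring about cleavage, Rpp30 rose (0.47, adjusted p = 0.0300 from limma), and of the 13 eIF3 subunits Eif3j1 rose (0.58, adjusted p = 0.00663 from limma). At an unadjusted p under 0.05 (limma), 5 of these 10 genes, 3 of the 13 eIF3 subunits and 3 of the 13 writers were higher. In these 3 lists 0 were lower, and of all tested genes 16.7% were higher. The adjusted p of Mettl16 was 0.0532 to 0.0694 when METTL3-Flox liver 2, 3 or 4 or METTL3-HKD liver 1, 2 or 4 was left out, 0.0847 with a replicate block and 0.0548 with no minimum on FPKM. That of Rpp30 was 0.0522 to 0.0825 without METTL3-Flox liver 2, 3 or 4 or METTL3-HKD liver 1, 3 or 4 (limma), 0.0678 with the block and 0.0657 with voom on the rebuilt reads. Eif3j1 stayed below 0.05 in all 16 other settings, but 18.99% of its length overlaps Spg11 on the other strand.

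The nuclear partners of Ythdc1 held 4 of these 8 genes, with 6 tested. Srsf3, a splicing factor that YTHDC1 recruits, measured 14.7, 12.7, 10.1 and 11.0 FPKM in the METTL3-HKD livers and 7.19, 6.22, 6.23 and 7.37 FPKM in the METTL3-Flox livers. The groups lay well apart, with a log2 fold change of 0.83 (SE 0.129, adjusted p = 0.00707 from limma) and an adjusted p under 0.05 in all 16 other settings. Srsf7, an SR protein of the same kind, rose by 0.63 on the log2 scale (adjusted p = 0.0201 from limma), Srsf10, a splicing factor that YTHDC1 is known to hold back from RNA, by 0.43 (adjusted p = 0.0239) and Khdrbs1, which encodes the splicing regulator SAM68, by 0.40 (adjusted p = 0.0309). The groups of each of these 4 genes lay apart, as was so, with METTL3-HKD higher, for 12.7% of all tested genes. Nxf1, the mRNA export receptor, and Cpsf6, a cleavage factor subunit, had log2 fold changes of -0.08 and 0.12 (adjusted p = 0.609 and 0.421 from limma). The adjusted p (limma) of Srsf7 was 0.0513 to 0.0576 without METTL3-Flox liver 2 or 3 or METTL3-HKD liver 1. That of Srsf10 was 0.0568 to 0.0619 without METTL3-Flox liver 2, 3 or 4 or METTL3-HKD liver 1 or 2, and that of Khdrbs1 was 0.0561 to 0.0825 without METTL3-Flox liver 2 or 3 or any 1 METTL3-HKD liver, 0.0849 with a replicate block and 0.0521 with no mean-variance trend.

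Neither of the 2 tested partners of Ythdc2, with 0 at an unadjusted p under 0.05, and none of the 3 IGF2BP cofactors passed the adjusted test, although each of these 3 had an unadjusted p under 0.05 as higher. Of the 5 tested oncofetal genes and IGF2BP targets (log2 fold changes -0.01 to 2.65), 3 were higher and 0 lower at an unadjusted p under 0.05 (limma). The adjusted test called 1 of them higher, Cd44, a cell adhesion receptor also made by leukocytes. It had 18.4, 6.05, 4.82 and 8.15 FPKM in METTL3-HKD and 2.66, 2.01, 2.79 and 2.45 FPKM in METTL3-Flox livers, a log2 fold change of 1.69 (SE 0.359, adjusted p = 0.0179 from limma). Its order over METTL3-HKD livers 1 to 4 was also that of the summed neutrophil markers given above, whose part in it was not tested. Without METTL3-Flox liver 2, 3 or 4 the adjusted p of Cd44 was 0.0504 to 0.0543 (limma).

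**Figure D5:**
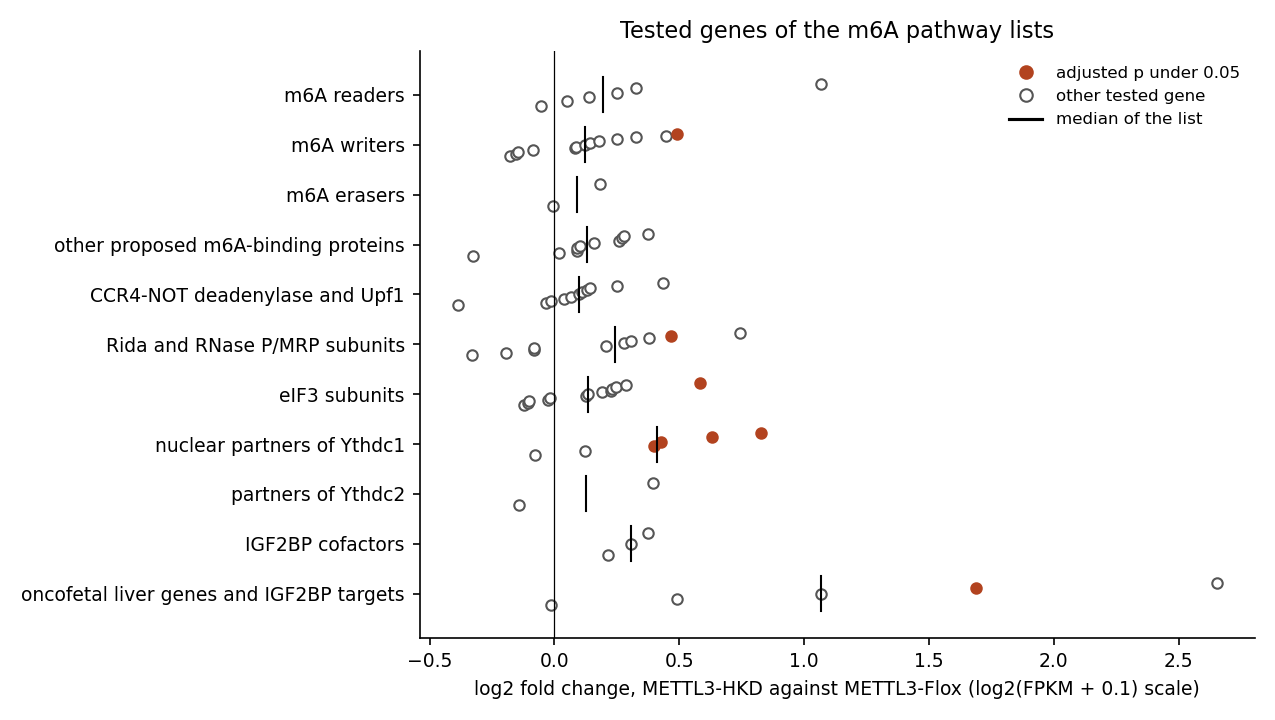
Log2 fold change of each tested gene of the m6A reader, writer, eraser and partner lists, METTL3-HKD against METTL3-Flox, on the log2(FPKM + 0.1) scale. Filled points have an adjusted p under 0.05 (limma) and bars give the median of each list; 4 of the 8 filled points are nuclear partners of Ythdc1 and no reader is filled.

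The genes most like the tested readers over the 8 livers, among 11043 protein-coding genes averaging 0.5 FPKM or more, were taken by the root mean square difference of the centred log2 profiles. For Ythdf3 these were Srrm1 (0.0255) and Cnot6 (0.0289), for Ythdf1 Tpt1 (0.0359) and Mea1 (0.0393), and for Ythdc1 Rabggtb (0.0651) and Arpc2 (0.0698). Ythdc2 and Igf2bp2 had more distant nearest genes, Fancl (0.113) and 6030458C11Rik (0.122) for Ythdc2 and Rnf39 (0.126) and Atg2a (0.134) for Igf2bp2. Among the 11043 genes, the nearest other reader ranked from place 387 (Ythdc1 for Ythdf2) to place 3189 (Ythdf3 for Ythdf1).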

How the data were processed

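RNA from the livers of 4 METTL3-HKD and 4 METTL3-Flox mice was sequenced, and the groups and mouse numbers follow the sample labels. The authors deposited 1 table with an FPKM value and a length for each of 54532 genes. The submitters' processing notes name GRCm38 and mm10, and the aligner, counter and strand setting are not given in the sources used here. Of the genes, 54495 are in GENCODE M21 and 98.3% have the same coordinates there.

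FPKM multiplied by gene length and by 1 library size per liver gave whole reads for 100% of non-zero values (tolerance 0.02). These reads, 15861245 to 18434488 per liver, gave the depth and the floor of 3 reads and entered 2 alternatives, and floors cover counting error only. FPKM are not counts, so the test was limma 3.58.1 in R 4.3.3 (lmFit, eBayes with a mean-variance trend) on log2(FPKM + 0.1) for 16645 genes averaging 0.1 FPKM or more, two-sided, with Benjamini-Hochberg adjustment over these genes and calls at 0.05. It was also run on simulated data with the same spread setting for all genes. That run did not check small changes or differences in library scaling. Exact permutation tests enumerated 70 arrangements (scipy 1.17.1, Python 3.11.15). The table's date-like names, 27 in all, were replaced from the annotation by identifier. The stretches of sequence were read from GENCODE M21 transcripts.

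The reader genes and the pathway and marker lists were chosen with earlier results of these data known. Named are the 8 readers, Mettl3, the pathway genes with an adjusted p under 0.05, and the 2 nearest profiles of each tested reader with a mean of at least 0.5 FPKM. The nearest profiles of Ythdf2 are not reported here. A few genes were named for comparison after their values were seen: Nxf1, Cpsf6 and Alkbh5, the markers Hnf4a and Alas2, and the genes that overlap or share sequence with a named gene. Each fit was repeated under 16 alternatives, of which 8 leave out 1 liver each and 1 has a block for the replicate number. Protein levels and m6A itself were not analysed here.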

Additional observations from a re-analysis of the deposited data

Results flagged for a closer look

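The readers, Mettl3, the called pathway genes and the ratios of paralogs were each looked at in both genotypes for 1 liver standing apart from the other 3 by a gap above Dixon's 95% critical value for 4 samples. Of 40 such groups 8 had one, where chance gives about 1 in 20 for a single group. The groups are not independent, because the ratios are built from genes also checked singly, so the 2 rates cannot be compared directly. METTL3-Flox liver 1 accounted for 4 of the 8. It was high for Ythdf1 (17.0 FPKM against 13.5 to 13.8 in the other METTL3-Flox livers) and for Ythdf2 (6.17 against 4.59 to 4.86 FPKM), low in the log2 ratio of Ythdf3 to Ythdf1 (-0.50) and high in that of Ythdf2 to Ythdf3 (-0.94). This liver also had the lowest ratio of library size to reads on genes (0.840), whose part in its FPKM values was not tested. Among METTL3-HKD livers, liver 4 was low for Ythdf1 (13.2 FPKM against 14.1 to 14.2), liver 1 was high for Srsf7 (19.6 FPKM against 15.0 to 15.5) and liver 2 was high in the log2 ratio of Ythdf2 to Ythdf3 (-0.88). METTL3-Flox liver 3 was low for Eif3j1 (7.04 FPKM against 8.26 to 8.45), on the side away from the METTL3-HKD livers.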

How the results depend on the processing

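Under the 16 alternatives of the fit, the log2 fold changes of Ythdf3 and Ythdc1 kept their direction and stayed uncalled in all 16. Scaling the libraries to their reads on genes raised the median of all genes to 0.20, turned Ythdf1 to 0.16 and Mettl3 to 0.047, and brought Ythdf2 to 0.54 with a call; the cause of the call was not tested. It also called 2310 genes higher and 374 lower, against 1506 and 1104, and 19 other pathway genes higher against 8. With no minimum on FPKM, 682 genes were called lower, and with a minimum mean of 1 FPKM, 1 pathway gene was called lower against 0; the cause was not tested. With that minimum Igf2bp2 could not be fitted. Leaving out 1 liver at a time gave log2 fold changes of -0.087 to 0.023 for Ythdf1, 0.23 to 0.42 for Ythdf2, 0.08 to 0.17 for Ythdf3, 0.16 to 0.35 for Ythdc1, -0.057 to 0.20 for Ythdc2, 0.82 to 1.35 for Igf2bp2 and -0.26 to -0.056 for Mettl3. The counts ran from 737 to 1653 genes higher, 347 to 1123 lower, 2 to 10 pathway genes higher and 0 to 2 lower. The log2 ratio of Ythdf2 to Ythdf1 differed by 0.29 to 0.43, each time at 0.0571, the smallest p that an exact permutation test of 3 against 4 gives. Since the full groups did not overlap, leaving out 1 liver could give no other p. With the median in place of the mean, 2 places in the order of levels changed (Ythdf1 and Ythdf3 in METTL3-Flox livers), and with the longest coding transcript, chosen after seeing the data, 4 did (Ythdc1 and Ythdf2 in both groups).

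No pairing by mouse number was seen: deviations of same-numbered livers correlated at 0.0711, -0.0838, -0.0134 and -0.0339. Those of different-numbered livers correlated at -0.0674 to 0.0942, and with 4 livers per group this cannot show that there is no pairing. With a replicate block, 971 genes were called higher and 645 lower, and 5 pathway genes higher. The block changed no call among the 6 tested readers, and the adjusted p of Igf2bp2 was 0.108. The ratio of Ythdf2 to Ythdf1 was higher in METTL3-HKD livers in 4 of 4 pairs (exact sign-flip permutation p = 0.125, the smallest possible). Any pairing of groups that do not overlap gives this result, so it adds nothing to the lack of overlap.

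Precision is limited by 4 livers per group for the YTH genes, whose spread exceeded counting error in most groups, and by reads for Igf2bp3 and Igf2bp1.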

Other observations

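Further cell type markers were read beside the readers. Of 5 monocyte and macrophage markers 2 passed the limma test as higher in METTL3-HKD mice (summed 79.8 to 210 FPKM against 43.6 to 68.1), and 3 of 4 cholangiocyte markers did (7.79 to 13.9 against 3.19 to 6.10 FPKM). Of 5 hepatic stellate cell markers 1 was higher and 1 lower. The shares over all tested genes were 9.05% higher and 6.63% lower. None of the 5 sinusoidal endothelial markers was called by limma, with 1 higher at an unadjusted p under 0.05, and none of the 2 tested of 5 lymphocyte markers, with 0 at that threshold.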
